A study of Rattus norvegicus with 9 samples.

Results

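The phospholipase A2 genes Pla2g2a, Pla2g4a, Pla2g6, Pla2g7, Pla2g12a, Pla2g15 and Pla2g16 were followed in the liver of irradiated rats. A probe was counted as belonging to one of them when its RefSeq accession on the array led to that gene's symbol or an older symbol. This gave 7 probes for 6 of the 7 genes, out of 41012 probes and 13438 named genes on the array, and no probe was matched to Pla2g12a, which was not analysed here. Pla2g16, which has 2 probes, is called Plaat3 in the current rat annotation. The genes were picked from earlier results on these rats: Pla2g2a was selected on its higher signal after TBI than in controls and Pla2g7 on its lower signal after HSC + TBI than after TBI, so for those 2 comparisons the values are given as a description without a p. The values that chose the remaining genes, if any did, are not given in the sources used here.

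Total liver RNA of 9 male Wistar rats was labelled with a single dye and hybridized to Agilent rat arrays, 1 array per rat. The 3 control rats were not irradiated, the 3 TBI rats received 6.5 Gy of total-body irradiation from a cobalt source at 2 Gy/min, and the 3 HSC + TBI rats received Hong Shan Capsule, a herbal medicine, by stomach tube on 3 consecutive days before the same irradiation. Livers were taken 24 h after exposure. The sample labels give the HSC dose as 30 mg/kg/day and the series design text as 10 g/kg/day. No arrays of rats given HSC without irradiation were analysed here, so an effect of HSC by itself could not be measured. In all comparisons HSC + TBI shares its rats between the comparison with control and the comparison with TBI, and the control and TBI rats are likewise shared.

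Phospholipases A2 cut the fatty acid from the middle position of a membrane phospholipid and leave a lysophospholipid. When the freed fatty acid is arachidonic acid, cyclooxygenases and lipoxygenases turn it into prostaglandins, thromboxane and leukotrienes, while the lysophospholipid can be reacylated or become a signal such as platelet-activating factor (PAF) or lysophosphatidic acid. Some members are secreted and attack bacteria or damaged membranes, some work inside cells under the control of calcium, and some inactivate PAF or remodel lipids in lysosomes and fat droplets. In the liver they are found in hepatocytes as well as in Kupffer cells, the resident macrophages.

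Values are log2 signals after quantile normalization of the processed spot signals over the 9 arrays, and a difference of 1 on this scale is a doubling. A probe was tested when every array of 1 or more groups marked it well above background, and 25369 probes met this. All 7 phospholipase A2 probes were above background on all 9 arrays. A gene was called changed when the adjusted p of limma's moderated test was under 0.05 (Benjamini-Hochberg, over all tested probes) and the change was at least 1.5-fold. The share of probes above background was 56.6% to 59.3% on control arrays, 63.6% to 69.5% on TBI arrays and 58.7% to 60.5% on HSC + TBI arrays. Control rats lay on 1 slide, TBI rats on another, and HSC + TBI rats on the remaining 2 of 4 slides, so slide and group cannot be told apart.

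Pla2g2a was higher with TBI than in controls, and Pla2g7 was lower with HSC + TBI than in either of the other groups. Of the 6 genes, 1 was called in each comparison: Pla2g2a, higher, for TBI against control, and Pla2g7, lower, for HSC + TBI against control and for HSC + TBI against TBI. Over all tested probes the share called was 7.25%, 3.23% and 0.796% in the same order. These counts are largely those for which the genes were picked and are given as a description. The promoters of these 2 genes are shown because theirs are the levels that moved. Each is the RefSeq sequence from 250 bases before to 50 bases after the annotated start of the gene (build GRCr8), 5′ to 3′ on the strand of the gene, at chr5:156359475-156359774 on the plus strand for Pla2g2a and at chr9:24901698-24901997 on the minus strand for Pla2g7, with capitals marking a match to one of 5 motifs.
Pla2g2a: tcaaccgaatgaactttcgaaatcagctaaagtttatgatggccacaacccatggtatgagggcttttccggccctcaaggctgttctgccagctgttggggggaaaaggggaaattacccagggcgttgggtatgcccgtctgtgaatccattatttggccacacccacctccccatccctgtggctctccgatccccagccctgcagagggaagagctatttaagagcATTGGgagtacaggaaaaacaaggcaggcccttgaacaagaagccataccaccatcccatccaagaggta
Pla2g7: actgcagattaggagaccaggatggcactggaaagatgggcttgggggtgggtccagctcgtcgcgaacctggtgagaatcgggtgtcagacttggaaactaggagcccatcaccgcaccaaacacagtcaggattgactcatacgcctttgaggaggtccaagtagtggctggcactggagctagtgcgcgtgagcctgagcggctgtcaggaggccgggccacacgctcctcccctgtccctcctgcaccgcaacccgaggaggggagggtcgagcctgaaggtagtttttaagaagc

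The motifs were searched on both strands, after the values were known. They were the TATA box (TATAAA), the GAS element bound by STAT factors (TTCNNNGAA), the ETS core (GAGGAA), the CCAAT box (CCAAT) and a kappaB half-pattern (GGGNNNTCC), and 14.2%, 8.9%, 27.6%, 37.5% and 17.3% of 33469 rat promoter windows of this length held them. The Pla2g2a window held 1 match, a CCAAT box on the opposite strand, and the Pla2g7 window held none. These are matches of letters only.

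Pla2g2a (gene ID 29692) encodes the secreted group IIA enzyme, known from inflamed tissue and blood and for killing bacteria. In the control rats its log2 signal was 5.57, 5.06 and 6.45. In the TBI rats it was 8.72, 8.07 and 7.93, and in the HSC + TBI rats 7.42, 6.78 and 8.74. Every irradiated rat lay above every control rat, whereas the 2 irradiated groups overlapped, with HSC + TBI 3 the highest of all rats and HSC + TBI 2 the lowest irradiated one. The TBI mean of 8.24 ± 0.42 was 2.55 above the control mean of 5.69 ± 0.70 (SD, n = 3 each), a 5.84-fold difference with a standard error of 0.52 on the log2 scale. The 95% interval was 1.36 to 3.73. With normexp, another way of correcting the background that here adds 50 to every signal, the difference was 1.39. The added 50 shrinks log2 differences, most of all for dim probes. A smaller difference or a lost call with normexp therefore says little about a dim probe. Leaving out control 1 (2.48), control 2 (2.23), TBI 1 (2.31) or TBI 2 (2.63) each ended the call. The gene was picked on this comparison, so these settings describe it and do not test it.

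The HSC + TBI mean of Pla2g2a was 7.65 ± 1.0, 1.95 above control, and this did not pass (95% interval 0.77 to 3.13, adjusted p = 0.0833 by limma). HSC + TBI differed from TBI by -0.59, within the spread between rats (95% interval -1.78 to 0.59, adjusted p = 0.607 by limma). Each of these 2 comparisons reuses the control or the TBI rats for which the gene was picked, so neither p is independent of that choice. In order, the group means ran TBI, HSC + TBI and control, and the first 2 did not differ beyond their spread.

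**Figure D1:**
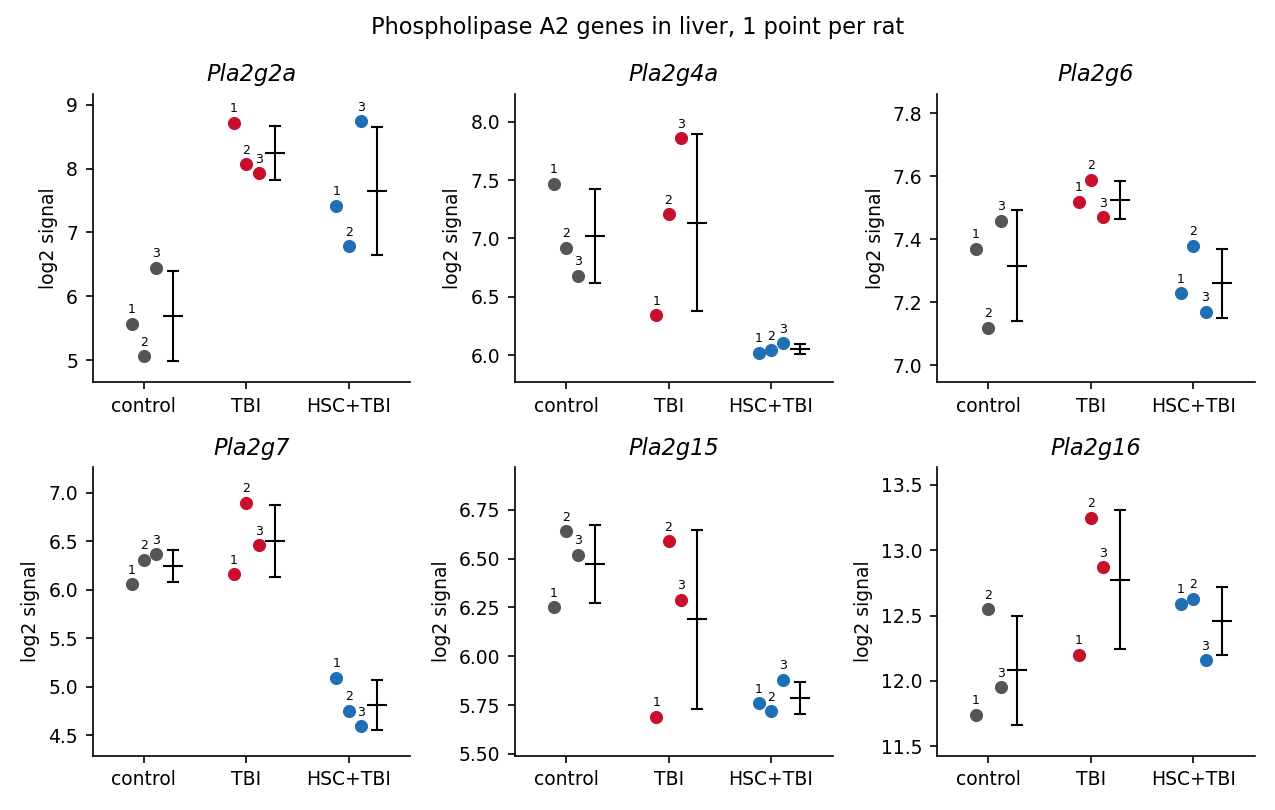
Log2 signal of the 6 measured phospholipase A2 genes (vertical axes, one scale per gene) in control, TBI and HSC + TBI rats. Each point is 1 rat with its replicate number, and the bar beside each group is the mean ± SD. For Pla2g2a every irradiated rat lies above the controls (5.06 to 6.45), and for Pla2g7 the HSC + TBI rats (4.59 to 5.09) lie below all others.

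Pla2g7 (301265) encodes the plasma PAF acetylhydrolase, which macrophages release and which inactivates PAF and oxidized phospholipids. Its log2 signal was 6.06, 6.31 and 6.37 in control rats and 6.16, 6.90 and 6.46 in TBI rats. In HSC + TBI rats it was 5.09, 4.75 and 4.59. The 3 HSC + TBI rats lay below every other rat, and control and TBI rats overlapped. The HSC + TBI mean of 4.81 ± 0.26 was 1.70 lower than the TBI mean of 6.51 ± 0.37 (SD, n = 3 each), a difference of -1.70 with a standard error of 0.21 (95% interval -2.18 to -1.22, 3.25-fold). The call did not survive leaving out TBI 2 or HSC + TBI 3, nor a fit of these 2 groups alone. Over all rats left out in turn the difference lay between -1.88 and -1.51. The gene was picked on this comparison, so these settings describe it and do not test it.

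Against the control mean of 6.25 ± 0.16, Pla2g7 fell by 1.44 on the log2 scale with HSC + TBI (standard error 0.21, 95% interval -1.92 to -0.96, adjusted p = 0.00975 by limma). This comparison uses the same HSC + TBI rats for which the gene was picked. It was called whichever rat was left out, with adjusted p between 0.00723 and 0.0498 by limma. TBI alone differed from control by 0.26 (95% interval -0.22 to 0.74, adjusted p = 0.474 by limma), a comparison that reuses the TBI rats for which the gene was picked. With normexp the differences with HSC + TBI shrank to -0.51 against control and -0.62 against TBI and were not called. Pla2g7 is dim, so the 50 that normexp adds to every signal shrinks its differences by itself. Normexp called 490 and 6 of all tested probes in these comparisons, beside 820 and 202 in the main fit.

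Kupffer cells and other macrophages are a source of Pla2g7, and their markers were measured in the same rats. Of 13 macrophage and Kupffer cell markers, 11 were tested, and none was called in any comparison. All 11 were below 0 for HSC + TBI against TBI, with a median log2 difference of -0.96 beside 0.06 over all tested probes, and 9 of the 11 did not overlap between these groups, against 21.4% of all tested probes. The mean log2 signal of the 11 markers was 11.15, 11.86 and 11.61 in control rats, 11.44, 12.35 and 12.07 in TBI rats, and 10.99 to 11.05 in the 3 HSC + TBI rats. None of the 11 was at background. In liver RNA, fewer cells of a type and less RNA per cell cannot be told apart, and the part of macrophages in the lower Pla2g7 signal was not tested. The 10 hepatocyte markers had a mean of 15.57 to 15.66, 15.60 to 15.79 and 15.68 to 15.77 in the 3 groups, with none called. Of 8 neutrophil markers 3 were tested and none was called, and their mean was 6.40 to 6.91 in control, 6.15 to 6.66 in TBI and 5.63 to 6.0 in HSC + TBI rats. For HSC + TBI against TBI, 2 of the 3 were below 0 and 1, Ngp, was above at 0.22. Ngp was above background on 1 control, 3 TBI and 1 HSC + TBI arrays and ran from 2.88 to 6.86 in control rats. The part of neutrophils in the Pla2g7 signal was not tested either.

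**Figure D2:**
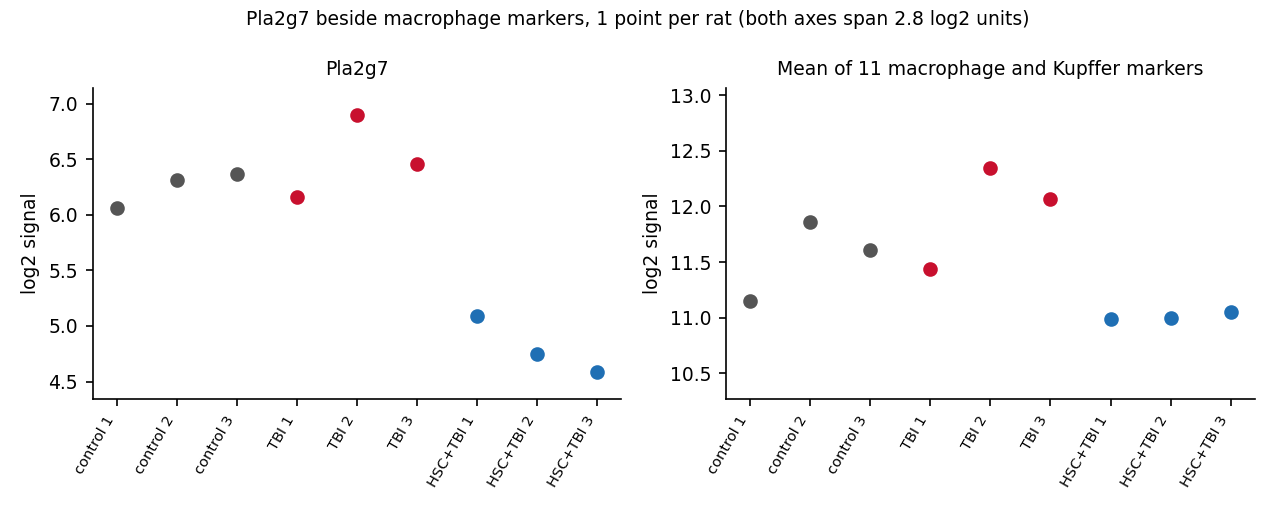
Log2 signal of Pla2g7 (left) and mean log2 signal of the 11 tested macrophage and Kupffer cell markers (right), 1 point per rat, grey for control, red for TBI and blue for HSC + TBI. Pla2g7 runs from 4.59 to 6.90 and the marker mean from 10.99 to 12.35, and the HSC + TBI rats are the lowest in both panels.

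Pla2g4a (24653) encodes the cytosolic enzyme that calcium brings to the membrane, the main supplier of arachidonic acid for prostaglandins and leukotrienes. Its log2 signal was 7.47, 6.92 and 6.68 in control rats, 6.34, 7.21 and 7.86 in TBI rats, and 6.02, 6.04 and 6.10 in HSC + TBI rats. The HSC + TBI rats lay close together and below all 6 others, while TBI rats were spread over the whole range of the controls and beyond. HSC + TBI differed from TBI by -1.09 (95% interval -1.89 to -0.28, adjusted p = 0.19 by limma) and from control by -0.97 (adjusted p = 0.179 by limma), and neither passed. TBI differed from control by 0.11 (adjusted p = 0.865 by limma). Without TBI 1, the lowest TBI rat, HSC + TBI lay -1.48 from TBI and was called, and TBI lay 0.51 from control and was not.

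Pla2g6 (360426) encodes the calcium-independent enzyme of group VI, which takes part in membrane upkeep. Its log2 signal stayed within a narrow band, 7.37, 7.12 and 7.46 in control rats, 7.52, 7.59 and 7.47 in TBI rats and 7.23, 7.38 and 7.17 in HSC + TBI rats. TBI rats were the highest, and they overlapped with neither of the other groups. The differences were 0.21 for TBI against control, -0.05 for HSC + TBI against control and -0.27 for HSC + TBI against TBI, and none passed (adjusted p = 0.327, 0.856 and 0.341 by limma).

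Pla2g15 (361401) encodes the lysosomal phospholipase A2, which is abundant in macrophages. Its log2 signal was 6.25, 6.64 and 6.52 in control rats, 5.69, 6.59 and 6.29 in TBI rats, and 5.76, 5.72 and 5.88 in HSC + TBI rats. The HSC + TBI rats lay below all controls, and TBI 1 was the lowest rat of all. HSC + TBI differed from control by -0.68 (95% interval -1.19 to -0.18, adjusted p = 0.136 by limma) and from TBI by -0.41 (adjusted p = 0.41 by limma), and TBI differed from control by -0.28 (adjusted p = 0.465 by limma). None was called. Without TBI 1, the difference between HSC + TBI and control was called; TBI 1 is no rat of that comparison and enters it through the shared estimate of the spread. Of 13 lymphocyte markers, 9 were tested. Against control, 7 were below 0 with TBI and 8 with HSC + TBI. Cd4 and Lck were above 0 with TBI, and Lck also with HSC + TBI. Called lower were 3 with TBI and 2 with HSC + TBI, beside 3.71% and 2.05% of all tested probes. Cd3g, Cd2 and Cd79b were above background on all 3 arrays of the control group only, and passed the filter through that group, where they are high. Calls of these markers against control therefore do not stand on their own. For HSC + TBI against TBI, 7 were below 0 and 1, Cd2, was called higher, beside 0.233% of all tested probes. Cd2 was above background on 0 of 3 TBI and 1 of 3 HSC + TBI arrays and passed the filter through the controls. The mean log2 signal of the 9 markers was 6.04 to 6.45 in control, 4.39 to 5.23 in TBI and 4.52 to 4.73 in HSC + TBI rats. TBI 1, the lowest rat for Pla2g15, was the lowest there too. Among the TBI rats it was also the lowest for Pla2g4a, Pla2g7 and Pla2g16, but not for Pla2g2a or Pla2g6. The macrophage marker mean was 11.44 in TBI 1, beside 12.35 and 12.07 in TBI 2 and TBI 3. Cd2 and Cd79b were not above background on any TBI array, nor Cd3g and Cd79b on any HSC + TBI array, and the lymphocyte marker mean includes them. The parts of lymphocytes and of macrophages in the Pla2g15 signal were not tested.

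Pla2g16 (Plaat3, 24913) encodes an enzyme of the Plaat family that is best known from fat tissue, where it limits the breakdown of stored fat. Its log2 signal was 11.74, 12.55 and 11.95 in control rats, 12.20, 13.25 and 12.87 in TBI rats, and 12.59, 12.63 and 12.16 in HSC + TBI rats. All 3 groups overlapped. TBI differed from control by 0.69, HSC + TBI from control by 0.38 and HSC + TBI from TBI by -0.32, and none passed (adjusted p = 0.193, 0.541 and 0.641 by limma). A second probe of the gene gave 0.73, 0.43 and -0.30.

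**Figure D3:**
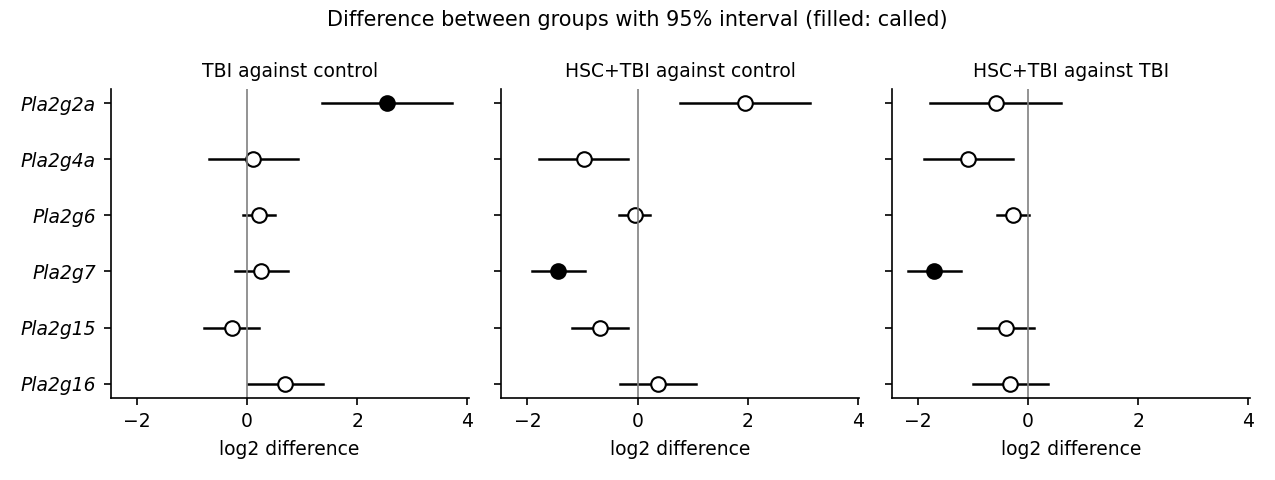
Log2 difference between groups (horizontal axis) with its 95% interval for the 6 measured genes in the 3 comparisons. Filled points are called. Pla2g2a is filled at 2.55 for TBI against control, and Pla2g7 at -1.44 against control and -1.70 against TBI.

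Across the 6 genes, the median log2 difference was 0.23 for TBI against control, -0.37 for HSC + TBI against control and -0.50 for HSC + TBI against TBI. Over all tested probes it was -0.01, 0.05 and 0.06. All 6 genes were below 0 for HSC + TBI against TBI, where 41.3% of all tested probes were. Without Pla2g2a and Pla2g7, which were picked for their values, the medians of the 4 remaining genes were 0.16, -0.37 and -0.36, and all 4 were below 0 for HSC + TBI against TBI, as were the 11 macrophage markers. Nothing is read from these counts. The groups did not overlap for 2, 4 and 3 of the 6 genes in the same order of comparisons, beside 28.9%, 31.7% and 21.4% of all tested probes.

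For each gene, the named genes whose signal ran most like it over the 9 arrays were found by Pearson's r, as a description over arrays that share their groups. Pla2g2a was most like Timm8b (0.964), Timm17a (0.945) and Galt (0.941). Pla2g7 was most like Ccl19 (0.969), Tnfsf13 (0.951) and Zc3h12d (0.946), and Pla2g4a was most like Gp1bb (0.961), Dnase1l3 (0.926) and Cx3cl1 (0.923). Pla2g15 followed Arhgap15 (0.994), Klrc3 (0.979) and Gzmb (0.977) most closely. For Pla2g6 the 3 were Sod1 (0.940), Fbxl13 (0.938) and Itgb4 (0.909), and for Pla2g16 they were Slain2 (0.963), Atf3 (0.939) and Slc4a7 (0.938).

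The wider pathway was read from 91 further genes in 6 lists, of which 78 had a probe and 60 were tested. TBI against control gave 2 called higher and 6 called lower, HSC + TBI against control gave 0 higher and 3 lower, and HSC + TBI against TBI gave 1 higher and 1 lower. With the p of the methods' t-test adjusted in place of limma's, none of these genes was called. That test called only 7, 2 and 0 of the 25369 tested probes in the 3 comparisons, so this says little about these genes. Normexp called 665, 490 and 6 of all tested probes, beside 1839, 820 and 202 in the main fit. By direction, 3.54% of all tested probes were called higher and 3.71% lower with TBI, 1.19% higher and 2.05% lower with HSC + TBI against control, and 0.233% higher and 0.564% lower between HSC + TBI and TBI. Of the other secreted and cytosolic phospholipases A2, 3 of 14 genes were tested and none was called. Their differences lay between 0.03 and 0.73 against control in both irradiated groups, and the tested genes were the pancreatic enzyme Pla2g1b, Pla2g4b and Pla2g12b.

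Of the patatin-like, Plaat and PAF acetylhydrolase relatives, 11 of 15 genes were tested. Pafah1b3 (114113), a catalytic subunit of the intracellular PAF acetylhydrolase, was the one called. Its log2 signal was 7.97, 7.97 and 8.22 in control rats, 7.20, 7.20 and 7.44 in TBI rats and 7.38, 7.19 and 7.26 in HSC + TBI rats, so both irradiated groups lay below all controls. It fell by 0.77 with TBI (adjusted p = 0.0100 by limma) and by 0.77 with HSC + TBI (adjusted p = 0.0157 by limma), and the 2 irradiated groups differed by 0.00. The call with TBI held whichever rat was left out, and that with HSC + TBI was lost without control 3 or any of the HSC + TBI rats, with differences between -0.82 and -0.69. With normexp the differences were -0.49 and -0.47 and neither was called. A second probe of the gene gave -0.65 with TBI, which was called (adjusted p = 0.0119 by limma). With HSC + TBI it gave -0.53, which at 1.44-fold was not called (adjusted p = 0.0403 by limma).

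Of 9 binding partners and regulators, all were tested. Annexin A2 and S100a10, which form a complex known to bind and inhibit cytosolic phospholipase A2, were the genes called. S100a10 (81778) fell by 0.59 with TBI (adjusted p = 0.0441 by limma) and by 0.74 with HSC + TBI (adjusted p = 0.0338 by limma). Its call with TBI was kept only without HSC + TBI 2, with differences of -0.68 to -0.51, and its call with HSC + TBI was lost without control 2, control 3 or any HSC + TBI rat, with differences of -0.84 to -0.64. Without the filter on dim probes neither was called, and the TBI call was also lost with a 75th percentile shift, normexp, the authors' values and a fit of the compared groups alone (-0.59 to -0.48). Anxa2 (56611) fell by 0.96 with HSC + TBI against control (adjusted p = 0.0418 by limma), and TBI 2 has no value there because its spot was marked as an outlier. That call was lost without control 2, control 3 or any HSC + TBI rat, with differences of -1.12 to -0.78. It was also lost with outlier spots kept (-0.97), with the authors' values (-0.96) and without the filter on dim probes (-0.96).

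Of 19 genes of eicosanoid synthesis and breakdown, 16 were tested, and their median log2 difference was 0.58 for TBI against control, -0.20 for HSC + TBI against control and -0.78 for HSC + TBI against TBI. With TBI, Ptges (59103), the inducible prostaglandin E synthase, was called higher. It was not above background on any control array and above background on all 3 TBI arrays, which makes it at least 1.92-fold higher (adjusted p = 0.0317 by limma). It was tested only because it passed the filter in the TBI group, where it is high, so its call does not stand on its own. Leaving out control 1, control 3, TBI 1, TBI 2 or HSC + TBI 3 each ended the call, with fitted log2 differences of 1.74 to 2.87. The call was also lost with normexp, where the fitted difference was 0.34, without the filter on dim probes, by both forms of the methods' test and in a fit of these 2 groups alone. Ptgr1 (192227), which breaks down prostaglandins and leukotriene B4, fell from 12.94, 12.96 and 12.70 in control rats to 11.65, 11.38 and 12.13 in TBI rats, by 1.15 (adjusted p = 0.0179 by limma), a call lost without control 1, control 2 or TBI 2 with differences of -1.35 to -0.98.

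Alox5ap (29624), the helper protein of 5-lipoxygenase in leukotriene synthesis, was the one gene of this list called for HSC + TBI against TBI. Its log2 signal was 5.81, 6.11 and 6.14 in TBI rats and 5.32, 5.27 and 5.17 in HSC + TBI rats, beside 5.28, 5.49 and 5.57 in control rats. The difference was -0.77 (adjusted p = 0.0494 by limma), and the call was kept only without TBI 1, with differences of -0.87 to -0.71. The call was also lost with normexp, where the difference was -0.27, and in 7 further settings, with differences of -0.78 to -0.77. Of the 16 tested genes, 13 were below 0 in this comparison, beside 41.3% of all tested probes, and 3 were above, up to 0.84. Ptgis was among these 3, with a mean of 6.84 in TBI and 7.67 in HSC + TBI rats. Other genes of leukocyte eicosanoid synthesis did not pass in this comparison. The cyclooxygenase Ptgs1 differed by -1.15 and the thromboxane synthase Tbxas1 by -1.14 (adjusted p = 0.129 and 0.123 by limma). Alox5, the 5-lipoxygenase, was not above background on any HSC + TBI array and passed the filter through the TBI arrays alone. It was at least 1.89-fold lower and did not pass (adjusted p = 0.297 by limma). The macrophage marker means given with Pla2g7 also differed between these groups, and their part in this list was not tested.

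Of 13 eicosanoid and PAF receptors, 5 were tested. Ptger3 (24929), a receptor of prostaglandin E2, fell by 0.96 with TBI (adjusted p = 0.00745 by limma) and was called whichever rat was left out. With normexp the difference was -0.49 and not called. Ptgfr (25652), the receptor of prostaglandin F2alpha, had a log2 signal of 6.55, 6.33 and 6.51 in control rats, 5.57, 5.55 and 5.87 in TBI rats and 6.75, 6.36 and 6.60 in HSC + TBI rats. TBI rats lay below all others. It fell by 0.80 with TBI (adjusted p = 0.0157 by limma), and HSC + TBI was 0.90 above TBI (adjusted p = 0.0423 by limma). The first call was lost without control 1, control 3 or TBI 2, with differences of -0.90 to -0.74. The second was kept only without TBI 1 or TBI 3, with differences of 0.81 to 1.01. With normexp the differences shrank to -0.31 and 0.36 and neither was called. The second call was also lost without the filter on dim probes, with the filter asking for all 9 arrays, with the adjusted form of the methods' test, with the replicate block and in a fit of these 2 groups alone.

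Of 21 genes of lysophospholipid reacylation and breakdown, 16 were tested and 2 were called, both with TBI. Enpp2 (84050), autotaxin, which makes lysophosphatidic acid from lysophospholipids, fell by 0.63 (adjusted p = 0.0427 by limma), a call kept only without TBI 1 or HSC + TBI 2, with differences of -0.71 to -0.52. It was also lost with a 75th percentile shift (-0.58), without the filter on dim probes and in a fit of the compared groups alone. Acsl5 (94340), which activates long-chain fatty acids, rose by 0.73 (adjusted p = 0.0149 by limma) and was called whichever rat was left out, but not in a fit of the compared groups alone.

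**Figure D4:**
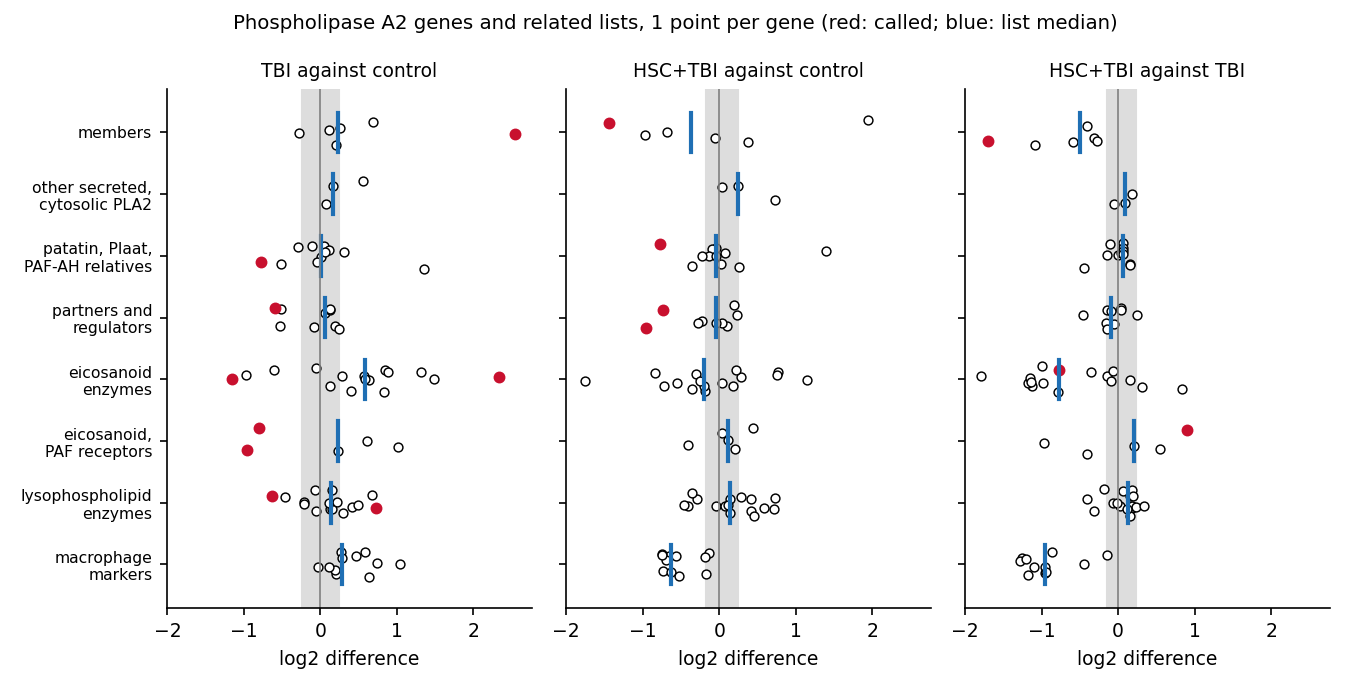
Log2 difference between groups (horizontal axis) for the 6 measured phospholipase A2 genes, 6 related lists and the macrophage markers, 1 point per gene, with called genes in red, the list median as a blue line and the range between the lower and upper quartile of all tested probes as a grey band. The eicosanoid enzymes have a median of 0.58 for TBI against control and -0.78 for HSC + TBI against TBI.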

How the data were processed

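Per the file headers, the authors read spot intensity with Agilent Feature Extraction 10.7.3.1 (10.7 in the submitters' processing notes). The deposited log2 table holds their quantile-normalized values, 1 per probe on each array. The array's design build entered no step here.

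Here the deposited processed signals were floored at 1 and log2-transformed. Quantile normalization of the 9 arrays and averaging per probe followed in limma 3.58.1 under R 4.3.3. Control spots and outlier spots (84 to 115 of 43379 per array) were left out, and no spot was saturated. The median absolute difference from the authors' log2 values was 0.029 to 0.032 per array. Symbols came by accession from RefSeq (GRCr8, names only), for 16968 probes. Promoters came from RefSeq, and no protein sequences were used here.

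Groups came from the sample labels. 1 limma fit of the 3 group means gave each comparison. The number of arrays limits the precision: an exact two-sided permutation test of 3 against 3 rats reaches no p under 0.1. The script was tested on simulated data. The brightest probe stood for a gene. Where a whole group was below background, the fold is a lower bound, against the higher, on each such array, of its own signal and the lowest signal above background.

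The members and lists were chosen with earlier results of these data known. Named genes are the members, the called genes of the related lists (up to 6 a list) and the 3 genes most like each member. Some genes are named outside this rule: Pla2g1b, Pla2g4b, Pla2g12b, Ptgs1, Tbxas1, Alox5, Ptgis and some lymphocyte markers. The other settings were a 75th percentile shift, normexp (offset 50), the authors' log2 values, dim probes unfiltered, a filter asking for all 9 arrays, outlier spots retained, a fit of the compared groups alone, no minimum fold change, the methods' t-test (p as such and adjusted), a replicate block, the slide as a random block, the mean over probes and each rat left out. The methods' test was run with unequal variances on log2 values and the ratio of linear means, a form settled after others had been run.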

Additional observations from a re-analysis of the deposited data

How the results depend on the processing

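The number of phospholipase A2 genes called was 1 in each comparison. For TBI against control it was 0 by the methods' t-test with adjusted p and 2 with the slide as a random block, which added Pla2g16. For HSC + TBI against control it was 0 with normexp and 0 by the adjusted t-test. There it was 2 by the unadjusted t-test and 2 with only the compared groups, which added Pla2g15 both times, and 4 with the slide block. For HSC + TBI against TBI it was 0 with normexp, by the adjusted t-test or with only the compared groups, and 2 with the slide block. Leaving out each rat in turn gave 0 to 1, 1 to 2 and 0 to 2 in the 3 comparisons in this order. The called genes include those picked for these values, so the counts are a description. Over all tested probes, normexp called 665, 490 and 6 and the adjusted t-test 7, 2 and 0, beside 1839, 820 and 202 in the main fit. The offset of 50 in normexp shrinks log2 differences of dim probes. With only the compared groups 1174, 1065 and 49 were called, and with the slide block 4528, 2573 and 2256.

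The related genes called numbered 8, 3 and 2. For TBI against control they were 3 with normexp, 5 without a filter on dim probes, 0 by the adjusted t-test, 21 with the slide block, 4 with only the compared groups, and 3 to 11 with a rat left out. For HSC + TBI against control they were 1 without the filter, 7 by the unadjusted t-test, 0 by the adjusted one, 12 with the slide block, and 0 to 4 with a rat left out. For HSC + TBI against TBI they were 1 with the authors' values or with outlier spots kept, and 11 with the slide block. They were 0 with normexp, without the filter, with a filter asking for all 9 arrays, by the adjusted t-test and with only the compared groups, and 0 to 7 with a rat left out.

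The rats were not treated as paired by replicate number. Deviations of same-numbered rats correlated at 0.098 to 0.191 between TBI and control and 0.001 to 0.015 between HSC + TBI and control. Between HSC + TBI and TBI the values were -0.144 to -0.016. Differently numbered rats were not compared, so these values do not settle whether the numbers pair the rats. With a replicate block, 1 phospholipase A2 gene was called in each comparison, as without it, and 0 related genes were called for HSC + TBI against TBI.

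Some differences turned sign, and all but that of Anxa2 were near 0. Pla2g4a for TBI against control was -0.06 without control 3 and -0.25 without TBI 3, in a range up to 0.51. Pla2g6 for HSC + TBI against control was 0.02 without control 3, in a range from -0.15. Pafah1b3 between the irradiated groups was 0.02 with normexp, 0.01 with the slide block, 0.06 as the mean over its probes, and 0.08, 0.04 and 0.00 without TBI 3, HSC + TBI 2 and HSC + TBI 3, in a range from -0.05. Anxa2 for TBI against control was -0.51 in the main fit, where TBI 2 has no value, and 0.01 with the authors' values. The signs of the Pla2g2a and Pla2g7 differences named as called held under each setting, and these include the comparisons on which the genes were picked. The cause of the changes of sign was not tested. With a 75th percentile shift, the probes called higher and lower over the whole array went from 59 and 143 to 38 and 239 for HSC + TBI against TBI, and from 899 and 940 to 1043 and 772 for TBI against control. The within-slide correlation was estimated at -0.327, and a negative value makes the slide block's tests more lenient. With 3 rats a group and no slide shared between groups, small changes cannot be separated from the spread between rats or from slide.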
